A study of Mus musculus with 45 samples.

Results

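The major urinary protein (Mup) genes described here are 10 protein-coding genes of the mouse liver, *Mup1*, *Mup2*, *Mup3*, *Mup4*, *Mup5*, *Mup7*, *Mup16*, *Mup17*, *Mup20* and *Mup21*, of 39179 genes in the count files. They were chosen by symbol, with their levels over the dose groups of these livers already known, so their own dose contrasts are given as a description, with no p-value, and the calls they received in the fit over all genes support nothing. A further 38 Mup loci, 11 protein-coding genes and 27 pseudogenes, are listed in the same files, and the 26 with enough reads to enter the fit are tested below. RNA-seq was run on 45 livers from female C57BL/6 mice gavaged every 4 days for 28 days with sesame oil vehicle or with TCDD (2,3,7,8-tetrachlorodibenzo-p-dioxin, a potent ligand of the aryl hydrocarbon receptor) at 30, 10, 3, 1, 0.3, 0.1, 0.03 or 0.01 µg/kg, with 5 mice per group. Dosing started on postnatal day 28. The sample labels also call the animals ovariectomized and the dosing daily. The published methods instead give dosing every 4 days, do not mention ovariectomy and refer to differences in estrous stage. These points were left as they are.

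Major urinary proteins are small lipocalins that hepatocytes secrete into the blood and the kidney passes into urine, where they bind and slowly release volatile pheromones. Their liver genes are known for higher expression in males, for responding to the pulse pattern of growth hormone through STAT5, and for varying widely between individual animals. The family falls into central genes, which are nearly identical in sequence (here *Mup1*, *Mup2*, *Mup7*, *Mup16* and *Mup17*), and more divergent peripheral genes (here *Mup3*, *Mup4*, *Mup5*, *Mup20* and *Mup21*). *Mup20* encodes darcin, a male scent protein, and *Mup4* and *Mup5* are better known from nasal, lacrimal and salivary glands than from liver.

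The members lie on the minus strand of chromosome 4 (GRCm38) between chr4:59956804-62150863, a 2194 kb stretch that also holds the other chromosome 4 Mup loci, 47 in all. Because the authors counted only reads with a single best alignment, a read from sequence that several Mup genes share is in no gene's count. The same 50 bases of coding sequence, a stretch as long as 1 sequenced read, are shown for every member to make that limit visible. Capitals mark the bases that differ from *Mup17*. The sequences are 5′ to 3′ on the minus strand and come from GENCODE vM21 transcripts on GRCm38. The windows lie at chr4:60501794-60501843 (*Mup1*), chr4:60139731-60139780 (*Mup2*), chr4:62087164-62087213 (*Mup3*), chr4:59960550-59960599 (*Mup4*), chr4:61835067-61835116 (*Mup5*), chr4:60070245-60070294 (*Mup7*), chr4:61519365-61519414 (*Mup16*), chr4:61595705-61595754 (*Mup17*), chr4:62053991-62054040 (*Mup20*) and chr4:62150694-62150743 (*Mup21*), at the start of the coding sequence, where the signal peptide is encoded.
Mup1: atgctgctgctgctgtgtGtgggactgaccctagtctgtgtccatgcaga
Mup2: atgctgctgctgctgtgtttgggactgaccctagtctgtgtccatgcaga
Mup7: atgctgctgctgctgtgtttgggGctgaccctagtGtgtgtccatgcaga
Mup16: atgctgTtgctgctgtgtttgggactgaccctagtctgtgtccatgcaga
Mup17: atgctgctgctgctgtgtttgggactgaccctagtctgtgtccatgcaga
Mup20: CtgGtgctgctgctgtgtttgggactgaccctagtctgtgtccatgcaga
Mup4: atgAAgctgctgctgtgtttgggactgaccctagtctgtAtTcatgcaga
Mup5: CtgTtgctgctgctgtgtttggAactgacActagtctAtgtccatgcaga
Mup21: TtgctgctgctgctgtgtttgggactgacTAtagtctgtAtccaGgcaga
Mup3: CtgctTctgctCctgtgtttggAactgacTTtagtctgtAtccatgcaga

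*Mup2* and *Mup17* shared these 50 bases exactly, so the 10 genes held 9 distinct sequences, and *Mup3* differed most from *Mup17*, at 7 positions. The window was picked for holding the most distinct sequences and variable positions among the members. It therefore does not show how well they can be told apart elsewhere. Even here, the windows of *Mup2*, *Mup7*, *Mup16*, *Mup17* and *Mup20* each matched a transcript of another gene exactly. Over the coding sequence, *Mup16* and *Mup17* were 98.9% identical, with 6 differences in 540 aligned positions. *Mup3* was nearest to *Mup21*, at 94.7%, and only 82.4% identical to *Mup1*. *Mup4* and *Mup5* were 92% identical to each other. The 5 central genes were 98.7% to 99.4% identical to one another.

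Of all 50-base windows in the transcripts of *Mup3*, 86.7% matched no other gene exactly, and 46.4% matched no other gene with up to 2 mismatches. *Mup4*, *Mup5* and *Mup21* also kept most of their windows as exact unique sequence (87.6%, 82.9% and 80.7%). For the central genes the exact shares were 38.4% for *Mup1*, 21.8% for *Mup2*, 21.9% for *Mup17*, 13.3% for *Mup7* and 8.29% for *Mup16*. *Mup16* and *Mup17* kept 0% once 2 mismatches were allowed, so a sequencing error in a read from one Mup gene could place it on another, and their counts are uncertain for that reason. *Mup20* lay between, at 49.5%.

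The reads that remained were unequally spread. *Mup3* held 85.4% of the 1909925 reads counted on the 10 members, with a median of 32380 reads per mouse. *Mup17* followed with a median of 3414, then *Mup16* with 435, *Mup20* with 398, *Mup21* with 85, *Mup2* with 57, *Mup7* with 18 and *Mup5* with 13. These 8 genes kept a median of at least 10 reads per mouse and are the ones described mouse by mouse. *Mup1*, with a median of 3 reads, and *Mup4*, with a median of 2, did not. All 10 passed the filter of more than 4 reads in any library, which a single mouse is enough to pass.

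Reads on genes ranged from 11767284 to 56509899 per library, and counts were expressed per 1000000 reads (CPM) after scaling by trimmed mean of M-values (TMM). In bulk liver, fewer cells of a type and less RNA per cell cannot be told apart. Hepatocyte markers dominated every library, with a sum over 8 genes of 121993 to 157379 CPM in vehicle and 110159 to 160094 CPM at 30 µg/kg. *Cyp1a1*, the cytochrome P450 that the aryl hydrocarbon receptor induces most, followed the dose labels, from 1.34 to 16.6 CPM in vehicle mice to a mean of 828 CPM at 0.1 µg/kg and 7627 CPM at 30 µg/kg, although mouse 5 at 0.01 µg/kg was at 69.7 CPM against 1.18 to 4.54 CPM in the rest of its group. 4 Y-linked genes had 0 reads in all mice. One library stood apart in a gene looked at after the data were seen: mouse 2 at 0.01 µg/kg had 2.93 CPM of *Xist*, which silences the inactive X chromosome, against 1112 to 2843 CPM in the other livers. Leaving that mouse out moved the 0.01 µg/kg mean of *Mup3* from 3061 ± 1097 to 2700.22 ± 858 CPM (SD, n = 4). Mouse 5 of that group, the one with the high *Cyp1a1*, also had the highest sum of 12 macrophage and leukocyte markers of all livers, 1036 CPM against a group median of 190.3 CPM and at most 664 CPM elsewhere. Without it the *Mup3* mean was 3273 ± 1142 CPM (SD, n = 4).

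*Mup3* had the most counted reads of the members in vehicle livers by a wide margin and also the deepest dose response in those counts. Per 1000 exact unique windows, vehicle livers held 3108 CPM of *Mup3*, 849.9 of *Mup17*, 288 of *Mup16* and 50.4 of *Mup20*. On the same per-window scale *Mup2* stood at 14.7 CPM, *Mup21* at 7.36, *Mup7* at 5.13, *Mup5* at 1.19, *Mup4* at 0.209 and *Mup1* at 0.106. The scale sets genes of different mappability side by side but cannot recover reads that were dropped as shared.

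Vehicle mice had 3019, 2686, 3692, 2004 and 3626 CPM of *Mup3*. Mice at 0.01, 0.03 and 0.1 µg/kg lay between 2017 and 4505 CPM, and each of these groups overlapped vehicle. At 0.3 µg/kg the 5 mice had 2189, 2064, 2314, 3055 and 1685 CPM, and at 1 µg/kg 673, 1562, 1419, 788 and 933 CPM. The 0.3 µg/kg values still overlapped vehicle, whereas every mouse at 1 µg/kg was below the lowest vehicle mouse and below the lowest mouse at 0.3 µg/kg. Mice at 3 µg/kg had 368, 403, 455, 574 and 647 CPM. At 10 µg/kg they had 319.8, 198, 388, 277 and 129.8 CPM, and at 30 µg/kg 68.2, 150.4, 125, 294 and 92.7 CPM. The highest mouse at 30 µg/kg was thus below the lowest at 3 µg/kg, while the 10 and 30 µg/kg groups overlapped.

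Group means of *Mup3* were 3005 ± 700.3 CPM in vehicle, 1075 ± 394 at 1 µg/kg and 146 ± 88.4 at 30 µg/kg (SD, n = 5). The fitted log2 fold change against vehicle was 0.19 ± 0.28 (SE) at 0.03 µg/kg, -0.41 ± 0.28 at 0.3, -1.48 ± 0.29 at 1, -2.62 ± 0.30 at 3, -3.52 ± 0.31 at 10 and -4.36 ± 0.32 at 30. The fitted level at 30 µg/kg was 20.6-fold below vehicle. From one dose to the next, 6 of 8 neighbouring pairs of groups overlapped for *Mup3*, and the exceptions were the steps from 0.3 to 1 and from 1 to 3 µg/kg. Even the lowest *Mup3* count, 1157 reads, left counting error small beside the spread between mice.

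*Mup17*, a central gene with the next most counted reads among the members, followed a different course. Vehicle mice had 123, 102.4, 210.4, 71.6 and 309 CPM. At 0.3 µg/kg they had 696, 236, 224, 786 and 143 CPM, and at 3 µg/kg 204, 312, 392, 258 and 400.4 CPM. Values at 30 µg/kg were 41.5, 58.5, 104, 273 and 16.8 CPM. Mean *Mup17* was 163 ± 96.4 CPM in vehicle, 357 ± 130.5 at 0.1 µg/kg, 417 ± 299 at 0.3, 356 ± 165 at 1, 313 ± 84.8 at 3, 138 ± 57.8 at 10 and 98.7 ± 102.3 at 30 (SD, n = 5). The middle doses had the highest means, yet every dose group overlapped vehicle, since single mice differed severalfold within a group. The fitted log2 fold changes were 1.13 ± 0.60 (SE) at 0.1 µg/kg, 1.35 ± 0.60 at 0.3, 0.94 ± 0.60 at 3 and -0.73 ± 0.59 at 30.

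*Mup16*, which shares all but 6 coding positions with *Mup17*, had a similar course of means at a lower level. It was at 20.5, 24.4, 25.3, 13.4 and 34.3 CPM in vehicle mice, 33.1, 54.1, 49.2, 27.8 and 42.6 CPM at 1 µg/kg and 8.02, 7.33, 13.8, 22.1 and 3.37 CPM at 30 µg/kg. The 30 µg/kg mice lay mostly below vehicle, but mouse 4 was inside the vehicle range. Its mean went from 23.6 ± 7.6 CPM in vehicle to 41.4 ± 10.9 at 1 µg/kg and 10.9 ± 7.28 at 30 µg/kg (SD, n = 5), with fitted log2 fold changes of 0.81 ± 0.36 and -1.10 ± 0.37 (SE). For both *Mup16* and *Mup17* the only neighbouring doses that did not overlap were 3 and 10 µg/kg. The values of *Mup16* and *Mup17* are not separate evidence, because reads can pass between these genes.

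*Mup7*, another central gene, turned on single mice. Vehicle mice had 0.92, 1.02, 0.74, 0.309 and 0.708 CPM, from 5 to 16 reads each. At 0.1 µg/kg the mice had 1.33, 5.03, 1.93, 2.5 and 1.71 CPM, all above vehicle. At 1 µg/kg they had 1.37, 17.4, 2.75, 2.18 and 1.02 CPM. Mouse 2 of the 1 µg/kg group carried 620 *Mup7* reads where the others carried 18 to 38, and the fitted log2 fold change of 2.81 ± 0.70 (SE) became 1.30 without it. All mice of that group were above vehicle, the lowest of them by a narrow margin (1.02 against 1.02 CPM). At 30 µg/kg *Mup7* was at 0.0451, 0.572, 0.495, 1.73 and 0 CPM, with 0 to 31 reads, and overlapped vehicle.

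*Mup2* overlapped vehicle at every dose. It was at 6.01, 6.29, 3.08, 3.59 and 1.62 CPM in vehicle mice and 2.21, 4.75, 1.98, 2.28 and 3.45 CPM at 30 µg/kg, which overlapped. The fitted log2 fold change of *Mup2* was below 0 at every dose, at -0.62 ± 0.29 (SE) at 0.03 µg/kg, -0.66 ± 0.28 at 10 and -0.50 ± 0.28 at 30. *Mup1*, the remaining central gene, had 0 to 21 reads per mouse, with 0 in 4 mice, and its group means stayed between 0.0646 and 0.335 CPM. Its fitted log2 fold change was above 0 at every dose, at 2.04 ± 0.74 (SE) at 0.3 µg/kg, 2.42 ± 0.71 at 1, 2.09 ± 0.71 at 3 and 0.99 ± 0.82 at 30. These values compare vehicle mice with 0 to 3 reads each with mice at 1 µg/kg that had 2 to 19 reads, and no dose met the call rule described below.

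The peripheral genes other than *Mup3* divided. *Mup21*, the member nearest to *Mup3* in sequence, was the one member higher at the top dose in every mouse. It was at 3.33, 3.37, 5.24, 3.09 and 3.64 CPM in vehicle mice, 4.97, 4.43, 12.3, 5.7 and 7.09 CPM at 10 µg/kg and 6.22, 13.4, 6.68, 10.3 and 7.93 CPM at 30 µg/kg. All 5 mice at 30 µg/kg were above the highest vehicle mouse, while the 10 µg/kg group overlapped vehicle. Means were 3.73 ± 0.863 CPM in vehicle and 8.9 ± 2.96 at 30 µg/kg (SD, n = 5), a fitted log2 fold change of 1.25 ± 0.33 (SE). Mouse 3 of the 0.01 µg/kg group was at 13.5 CPM, level with the highest mouse at 30 µg/kg.

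*Mup20*, the darcin gene, had no dose group apart from vehicle. Vehicle mice were at 25.3, 18.2, 23.5, 15.3 and 27.2 CPM. Mice at 1 µg/kg were at 15.5, 27, 13.8, 7.13 and 12.6 CPM and those at 30 µg/kg at 15.9, 55.1, 22.3, 74.4 and 10.2 CPM. The 30 µg/kg group spread over 10.2 to 74.4 CPM, on both sides of vehicle. Its fitted log2 fold change of 0.70 ± 0.43 (SE) at 30 µg/kg was 0.23 without mouse 4. In the 0.3 µg/kg group, mouse 1 was at 59.3 CPM and the other 4 mice were at 16.5 CPM or less.

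*Mup5*, a gland-associated gene, was low in liver, at 0.778, 0.572, 1.29, 0.309 and 1.36 CPM in vehicle mice and 0.27, 0.343, 0.318, 0.724 and 0 CPM at 30 µg/kg. Those groups overlapped, with 0 reads in 1 mouse at the top dose. Its fitted log2 fold change was -1.15 ± 0.43 (SE) at 10 µg/kg and -1.34 ± 0.45 at 30 µg/kg. *Mup4* had 0 reads in 8 mice and at most 11 reads in the rest except for 2 livers. Mouse 1 at 3 µg/kg had 25 *Mup4* reads (1.83 CPM) and mouse 4 at 30 µg/kg had 55 reads (3.06 CPM). The fitted log2 fold change of *Mup4* at 30 µg/kg was 1.94 with that mouse and -1.96 without it, so its sign rested on 1 liver. Of 11 skin, lacrimal and salivary gland markers checked beside these genes, *Krt5*, *Prol1*, *Bpifa2*, *Smr2* and *Smr3a* were at 0 reads in all mice. *Krt14* did not pass the read filter either, so the sum of the 11 came almost wholly from *Krt10*, *Lor*, *Amy1*, *Pigr* and *Lyz1*. That sum was 1654 to 2202 CPM in vehicle and 1039 to 1852 CPM at 30 µg/kg. The part of these markers in the *Mup4* and *Mup5* values was not tested.

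A gene was called changed where edgeR's quasi-likelihood fit over all 17464 genes gave a 2-fold or larger difference from vehicle and a Benjamini-Hochberg adjusted p under 0.05. Over all genes, 0% were called at 0.01 µg/kg, where 1760 genes had an unadjusted p under 0.05. The shares were 0.0286%, 0.0172% and 0.229% for the 0.03, 0.1 and 0.3 µg/kg groups. At 1 µg/kg 0.687% of genes were higher and 0.195% lower, and 3 µg/kg gave 2.15% and 0.819%. The 10 µg/kg group had 3.81% higher and 1.73% lower, and the 30 µg/kg group 8.03% and 3.42%. The members first met the rule at 1 µg/kg, *Mup3* as lower and *Mup7* as higher. *Mup3* alone was called at 3 and 10 µg/kg, as lower. At 30 µg/kg *Mup3*, *Mup5* and *Mup16* were called lower and *Mup21* higher, 4 of 10 members. Since the members were picked with these contrasts known, the counts are set beside the background and nothing is read from them.

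At 30 µg/kg, 10.3% of all genes had every dosed mouse above every vehicle mouse and 9.57% had every dosed mouse below. Among the members this held for *Mup21* (above) and *Mup3* (below). The calls of *Mup5* and *Mup16* at 30 µg/kg were made on overlapping groups and depended on single mice. Only 1 member was called lower without vehicle mouse 5, without mouse 1 or without mouse 5 of the 30 µg/kg group, and 4 were without its mouse 4. The *Mup7* call at 1 µg/kg was lost without mouse 2 of that group or without any 1 of vehicle mice 1, 3, 4 and 5. The median fitted log2 fold change over the 10 members at 30 µg/kg was -0.42, against 0.02 over all genes.

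The make-up of the Mup reads shifted with dose. In vehicle livers *Mup3* supplied a median of 94.4% of the reads on the 10 members (90.6 to 94.9% in the 5 mice). The median shares were 87.8%, 69.4% and 58.5% in the 0.3, 1 and 3 µg/kg groups. At 30 µg/kg it was 47.9% (43.1 to 69%), so the vehicle and 30 µg/kg ranges were apart. For each *Mup3* read there were 0.0406 *Mup17* reads in the median vehicle liver (0.0357 to 0.0852). In the 3 µg/kg group the ratio was 0.619 (0.45 to 0.863), and in the 30 µg/kg group 0.608 (0.182 to 0.927). This ratio is formed within 1 library and does not depend on the scaling between libraries.

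Within the central group the median number of *Mup17* reads per *Mup16* read was 5.97 in vehicle (4.21 to 9.001), 9.81 at 0.1 µg/kg (8.39 to 11.9), 9.49 in the 3 µg/kg group and 7.53 in the 30 µg/kg group. All groups overlapped vehicle in this ratio, and mouse 3 at 0.01 µg/kg had the lowest value, 1.29. Summed over the 10 members, the median level was 3199 CPM in vehicle and 275 CPM at 30 µg/kg. As a share of all gene reads the members took a median of 0.309% in vehicle and 0.0303% at the top dose. Reads placed at several sites are in no gene's count, and most windows of the central genes would give such reads. Over the whole library there were 0.691 to 1.03 alignment lines from such reads per uniquely aligned read in vehicle and 0.58 to 0.831 at 30 µg/kg. The Mup share of them was not tested.

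*Mup3* and *Mup21* are neighbours on the chromosome (chr4:62083476-62087342 and chr4:62147932-62150863) with similar coding sequence, and they moved in opposite directions at 30 µg/kg. The sequence around their start sites is shown for that reason. The windows are chr4:62087318-62087467 for *Mup3* and chr4:62150839-62150985 for *Mup21*, both minus strand, 5′ to 3′, from the RefSeq annotation of GRCm38.p6. The *Mup3* window ends at the RefSeq start site and the aligned *Mup21* window 3 bases past its own, and both reach into the gene bounds given above. Capitals mark bases that differ from the other gene or have no partner there.
Mup3: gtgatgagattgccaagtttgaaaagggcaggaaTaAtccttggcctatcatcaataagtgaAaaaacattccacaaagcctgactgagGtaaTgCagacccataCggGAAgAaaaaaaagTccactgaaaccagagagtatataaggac
Mup21: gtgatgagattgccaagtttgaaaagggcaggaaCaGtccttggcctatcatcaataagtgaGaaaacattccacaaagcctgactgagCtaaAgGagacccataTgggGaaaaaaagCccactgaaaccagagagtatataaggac

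Over these 150 aligned positions the pair differed at 12 (92% identity), 3 of which are bases present in *Mup3* only. Over the 250 bases before the start site the identity was 89.1%. Promoter sequence was at hand for 6 of the 10 members (*Mup2*, *Mup3*, *Mup4*, *Mup7*, *Mup17* and *Mup21*). Windows of 250 bases before to 50 after the start site were searched on both strands for TTCNNNGAA, the core bound by STAT5, and for GCGTG, the core of the dioxin response element. Neither was found in the 6 windows, whereas 8.3% and 32.4% of 32851 promoters of the same length held them. Absence of these letters says nothing about elements farther away or about the factors.

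Calls in both directions were also made among the other Mup loci at 30 µg/kg. Of 38, 26 passed the filter, 12 kept a median of at least 10 reads and 7 had no read in any mouse. By the call rule, 5 of 26 were lower and 2 higher, with a median log2 fold change of -0.45. Over all genes the shares were 3.42% lower and 8.03% higher, and nothing is read from the 2 higher calls. With an adjusted p under 0.05 alone the counts were 5 lower and 3 higher, against 14.1% and 15.5% of all genes. *Mup9* and *Mup11* are central protein-coding genes, and both were lower. *Mup9* was at 14.4, 8.52, 11.2, 3.16 and 8.996 CPM in vehicle mice and 0.541, 1.2, 1.2, 3.9 and 0.561 CPM at 30 µg/kg (log2 fold change -2.64 ± 0.43 (SE), adjusted p = 5.24e-06 in edgeR). *Mup11* was at 26, 20.7, 72.1, 9.28 and 68.6 CPM and 1.04, 3.95, 3.36, 16.7 and 0.401 CPM (log2 fold change -2.95 ± 0.76 (SE), adjusted p = 0.00272). Each of these overlapped vehicle through the highest mouse at 30 µg/kg, which was mouse 4.

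*Mup12*, also central, was higher at middle doses. It was at 2.05, 1.91, 2.9, 0.928 and 5.15 CPM in vehicle mice, 5.48, 8.14, 10.7, 8.73 and 7.68 CPM at 1 µg/kg and 5.55, 8.05, 13.8, 9.02 and 7.07 CPM at 3 µg/kg. Both dose groups lay wholly above vehicle, with edgeR log2 fold changes of 1.63 ± 0.44 (SE), adjusted p = 0.037 and 1.73 ± 0.43 (SE), adjusted p = 0.0086. At 30 µg/kg it was not called (-0.52 ± 0.47 (SE), adjusted p = 0.437). The mean of *Mup17* was likewise highest in the middle of the dose range, but without groups apart from vehicle. Allowing 2 mismatches, 4.45% of *Mup12* windows, 5.17% of *Mup9* windows and 6.79% of *Mup11* windows matched no other gene. Reads can thus pass between these central genes, and their values are not separate evidence from those of *Mup17*.

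*Mup-ps22*, a pseudogene on chromosome 11 (chr11:55123695-55123937), carried more reads in vehicle livers than any member but *Mup3*. It went from 334 ± 142 to 149 ± 100.4 CPM (SD, n = 5; log2 fold change -1.17 ± 0.38 (SE), adjusted p = 0.0176). Of its 194 windows 92.8% matched no other gene exactly, and 53.6% with 2 mismatches allowed. The remaining windows could take reads from other genes, so its count is also uncertain in part. Its call was lost when any 1 of 4 mice was left out, with log2 fold changes of -1.53 to -0.91 over the 10 such fits. *Mup18* (-1.23 ± 0.48 (SE), adjusted p = 0.0481) and *Mup-ps18* (-1.98 ± 0.51 (SE), adjusted p = 0.00248) were also lower, and *Mup18* lost its call when any 1 of 6 of the 10 mice was left out. *Mup-ps10* (2.76 ± 0.54 (SE), adjusted p = 9.98e-05) and *Mup-ps14* (1.25 ± 0.38 (SE), adjusted p = 0.00996) were higher. The median of *Mup-ps10* was only 8 reads per mouse. *Mup-ps14* and *Mup18* kept 0% of their windows as unique once 2 mismatches were allowed, so their counts are uncertain. *Mup6*, a peripheral gene, was not called (0.62 ± 0.35 (SE), adjusted p = 0.183), with 4 mice at 2.61 to 4.41 CPM and mouse 5 at 0.0801 CPM.

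**Figure D1:**
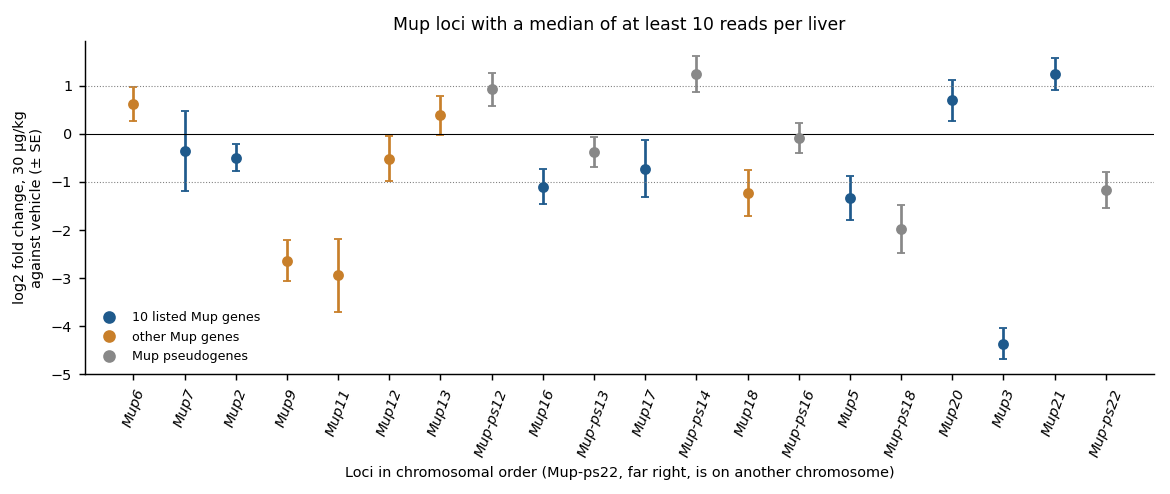
Fitted log2 fold change at 30 µg/kg against vehicle (bars are ± SE) for the members and other Mup loci with a median of at least 10 reads per mouse, in chromosomal order. *Mup3* had the lowest value (-4.36) and lay beside *Mup21* at 1.25.

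Genes around the cluster gave a local comparison. Of 47 non-Mup genes within 1 Mb of its ends, 28 were tested. By the call rule 2 were higher, against 8.03% of all genes, and 6 more were lower by adjusted p alone, against 14.1% of all genes. The median log2 fold change was 0.05. The higher ones were *Bspry* from 0.157 ± 0.0879 to 0.704 ± 0.279 CPM (log2 fold change 2.14 ± 0.48, adjusted p = 6.23e-04) and *Snx30* from 10.5 ± 1.23 to 27 ± 3.36 CPM (log2 fold change 1.36 ± 0.17, adjusted p = 2.54e-08). *Ambp*, which encodes the lipocalin alpha-1-microglobulin and is no member of the Mup family, went from 1819.96 ± 89.6 to 1049 ± 159 CPM (log2 fold change -0.80 ± 0.09, adjusted p = 2.05e-09). *Slc31a1*, a copper transporter, went from 301 ± 22.5 to 264 ± 15.4 CPM (log2 fold change -0.19 ± 0.07, adjusted p = 0.0334), and neither met the fold threshold. Of 6 non-Mup genes between the Mup loci, 3 were tested. *Gm12909*, annotated as an antisense transcript, on the plus strand 945 bases from the *Mup3* start site, fell from 7.46 ± 1.76 to 2.68 ± 1.44 CPM (log2 fold change -1.46 ± 0.34, adjusted p = 8.45e-04). *Gm13775* was not called, at a log2 fold change of -0.24 ± 0.28.

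Growth hormone signalling and the factors known to regulate Mup genes were examined as a list of 28 genes, all tested. At 30 µg/kg 1 was called higher and 2 lower, with 7 lower by adjusted p alone and a median log2 fold change of -0.26. Over all genes the shares were 8.03% higher, 3.42% lower and 14.1% lower by adjusted p alone, and nothing is read from the 1 higher call. *Ghr*, the growth hormone receptor, fell from 767 ± 73.8 to 327 ± 72.1 CPM (log2 fold change -1.23 ± 0.13, adjusted p = 3.03e-10). *Igfbp2*, an insulin-like growth factor binding protein, fell from 205 ± 46.6 to 39.97 ± 18.9 CPM (log2 fold change -2.36 ± 0.29, adjusted p = 1.56e-08) and was already called lower at 3 µg/kg. *Socs1*, an inhibitor of cytokine signalling, rose from 0.14 ± 0.118 to 0.799 ± 0.774 CPM (log2 fold change 2.41 ± 0.73, adjusted p = 0.0105) on few reads. *Igf1* (-0.37 ± 0.16) and *Hnf4a* (0.11 ± 0.14), a hepatocyte transcription factor, did not meet the rule.

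Mup genes are among the male-biased genes of mouse liver, so other sex-biased genes were set beside them. Of 19 male-biased genes tested of 20 listed, 5 were called higher and 5 lower, against 8.03% and 3.42% of all genes. Their median log2 fold change was 0.13. *Slco1a1*, an organic anion transporter, fell from 67.1 ± 72 to 0.608 ± 0.55 CPM (log2 fold change -6.80 ± 1.11, adjusted p = 6.46e-06). *Susd4* fell from 3.19 ± 0.878 to 0.17 ± 0.0791 CPM (log2 fold change -4.16 ± 0.39, adjusted p = 1.80e-11), and *Elovl3*, a fatty acid elongase, fell from 2.35 ± 0.987 to 0.255 ± 0.155 CPM (log2 fold change -3.09 ± 0.75, adjusted p = 0.00146). *Hsd3b5*, a male-specific steroid dehydrogenase, fell on few reads from 0.463 ± 0.36 to 0.0114 ± 0.0256 CPM (log2 fold change -4.86 ± 1.68, adjusted p = 0.0248). *Cyp2f2* (0.13 ± 0.11) and *Ugt2b1* (-0.02 ± 0.14) were not called.

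Of 26 female-biased genes, all tested, 3 were called higher and 10 lower, against 8.03% and 3.42% of all genes. Their median was -0.95. *Sult3a1*, a sulfotransferase, fell from 128 ± 36 to 2.35 ± 3.42 CPM (log2 fold change -5.76 ± 0.54, adjusted p = 2.22e-11). *Cyp4a14*, a fatty acid hydroxylase, fell from 976 ± 103 to 52 ± 24 CPM (log2 fold change -4.23 ± 0.49, adjusted p = 4.95e-09). *Cyp3a16* (-3.07 ± 0.95) and *Atp6v0d2* (-3.03 ± 0.30) were also called lower, whereas *Cyp2b9* (-0.84 ± 0.12) and *Cyp4a10* (-0.41 ± 0.27) did not meet the rule. Genes of both lists were also called higher, and of these *Cyp2d9*, a male-biased cytochrome P450, rose from 83.2 ± 12.1 to 340.2 ± 85.6 CPM (log2 fold change 2.03 ± 0.28, adjusted p = 2.90e-07). It was picked as an example after its values were seen.

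Mup proteins are lipocalins and secreted hepatocyte proteins, and both groups were examined. Of 14 other lipocalin family genes 10 were tested, with a median of -0.40. By adjusted p alone 5 were lower, against 14.1% of all genes. By the call rule 2 were lower, against 3.42% of all genes. These were *Ptgds*, a prostaglandin D synthase, from 4.07 ± 0.917 to 0.661 ± 0.388 CPM (log2 fold change -2.53 ± 0.38, adjusted p = 1.70e-06), and *Orm3*, an orosomucoid, from 12.9 ± 2.34 to 2.75 ± 1.44 CPM (log2 fold change -2.20 ± 0.55, adjusted p = 0.00189). *Fabp1* (0.11 ± 0.20) and *Rbp4* (0.25 ± 0.14), carriers of fatty acids and retinol, were not called. Of 25 abundant secreted proteins 1 was called lower, against 3.42% of all genes. By adjusted p alone 16 were lower, against 14.1% of all genes, with a median of -0.54. *Apoa1*, the main apolipoprotein of high-density lipoprotein, fell from 6179 ± 846 to 1938 ± 542 CPM (log2 fold change -1.67 ± 0.23, adjusted p = 2.36e-07). Albumin (*Alb*, -0.08 ± 0.11) and complement *C3* (-0.10 ± 0.11) were not called. All fold changes here are on the log2 scale from the edgeR fit.

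Some markers of other liver cells were called higher at 30 µg/kg, where 8.03% of all genes were called higher. The sum of 12 macrophage and leukocyte markers was 163 to 256 CPM in vehicle and 147 to 433 CPM at 30 µg/kg, with 4 of 12 called higher and the ranges overlapping. For 7 stellate cell markers the sums were 239 to 323 and 460.4 to 591 CPM, which did not overlap, with 2 called higher. For 6 endothelial markers they were 128 to 169 and 151 to 249 CPM, overlapping, with 1 called higher, and nothing is read from that call. For 5 cholangiocyte markers the sums were 52.1 to 77.5 and 53 to 70.2 CPM. Of the 8 hepatocyte markers 1, *Apoa1*, was called lower, and 5 were lower by adjusted p alone, against 14.1% of all genes. Their median log2 fold change was -0.46. Their summed ranges at the 2 ends of the dose range overlapped. *Alb*, which was not called, made up most of that sum, at a mean of 111468 CPM in vehicle. The part of cell composition in the Mup values was not tested.

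Mice of the same dose differed from one another in a shared way. For each of the 8 members with enough reads, log2 CPM (with 0.1 CPM added) was taken minus its group mean in each of 45 mice, and the 28 pairs of genes were correlated as a description. The points share libraries, depth and, among the central genes, reads of near-identical sequence. Pearson's r ran from -0.18 to 0.91 with a median of 0.48, and 21 pairs were positive. The highest value, 0.91 (Spearman's rho 0.88), joined *Mup16* and *Mup17*, which can exchange reads. *Mup3*, whose coding sequence was 82.1% to 83% identical to theirs, had r = 0.75 with *Mup7* (rho 0.75), 0.69 with *Mup16* (rho 0.69) and 0.69 with *Mup17* (rho 0.70).

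*Mup21* and *Mup2* had lower correlations with these genes. *Mup21* had r = 0.24 with *Mup3* and -0.10 with *Mup16*, and its highest value was with *Mup20*, at 0.49. *Mup2* stayed between -0.18 and 0.05 with all others over the 45 mice. In the 25 mice of the 0.01 to 1 µg/kg groups, 5 of the 28 pairs moved by 0.2 or more. *Mup2* then had r = 0.24 with *Mup16*, 0.20 with *Mup17*, 0.12 with *Mup3* and -0.36 with *Mup21*, and *Mup3* with *Mup20* went from 0.53 to 0.24. Mouse 4 of the vehicle group was the lowest of its group for 7 of the 8 members, all but *Mup2*. Mouse 2 at 1 µg/kg, mouse 3 at 10 µg/kg and mouse 4 at 30 µg/kg were each the highest of their group for 6 of 8.

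**Figure D2:**
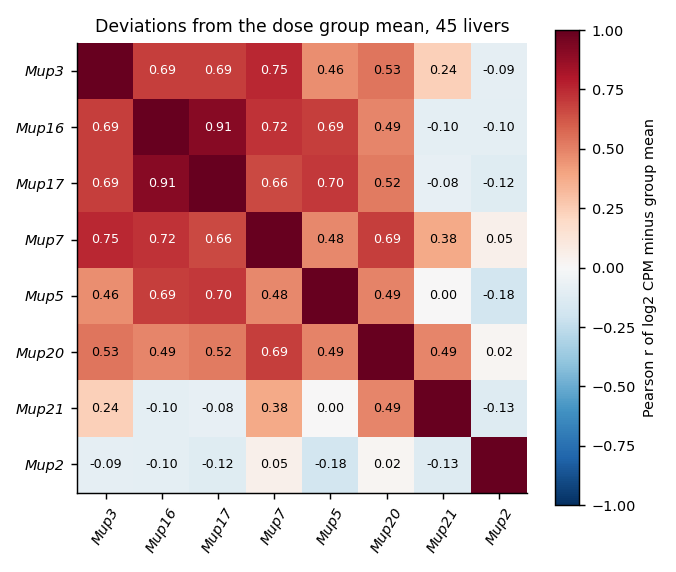
Pearson's r between pairs of the 8 members over 45 mice, from log2 CPM minus the group mean, with the colour giving r from -1 to 1. *Mup16* and *Mup17* had the highest value (0.91) and *Mup2* lay between -0.18 and 0.05 with the others.

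One low-dose mouse split the family most clearly. Mouse 3 at 0.01 µg/kg was the lowest of its group for *Mup2*, *Mup3*, *Mup5*, *Mup7*, *Mup16* and *Mup17* and the highest for *Mup20* and *Mup21*. Its *Mup17* level was 7.12 CPM where the other 4 mice were at 60.1 to 176 CPM. Its *Mup16* level was 5.51 CPM against 9.79 to 29.2 CPM. Its *Mup20* level of 42.4 CPM and *Mup21* level of 13.5 CPM were both above every vehicle mouse.

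The genes whose level over the 45 mice was most like the summed CPM of the 8 members all lay outside chromosome 4. Since *Mup3* makes up most of that sum, the measure follows *Mup3*. *Susd4*, a male-biased gene, had r = 0.949, rho = 0.931 and was at 3.19 ± 0.878 CPM in vehicle and 0.17 ± 0.0791 CPM at 30 µg/kg. *Sult2a8*, a bile acid sulfotransferase, had r = 0.946, rho = 0.948 and was at 1240.2 ± 206 CPM in vehicle and 119 ± 72.9 CPM at 30 µg/kg. *Aadac*, an esterase of the endoplasmic reticulum, had r = 0.936, rho = 0.858 and was at 723 ± 18.2 CPM in vehicle and 283 ± 80.3 CPM at 30 µg/kg. *Ces3a*, a liver carboxylesterase, had r = 0.936, rho = 0.897, and *1700001C19Rik* had r = 0.929, rho = 0.819. All of these points share the dose groups, so the correlations mainly order genes by their dose course and are given as a description.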

How the data were processed

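Liver RNA was sequenced as single 50-base reads from Illumina TruSeq RNA libraries of 45 mice. The authors deposited whole-number counts per Ensembl gene for each mouse. According to the methods and the submitters' processing notes, reads were aligned to GRCm38 with Bowtie and TopHat 1.4.1 and counted with HTSeq 0.6.1 in its intersection-nonempty mode, with FastQC 0.11.2 and SAMtools 0.1.19 also named. HTSeq leaves out reads with several alignments, and lines for such reads were kept out of library sizes and tests. Libraries were pooled for sequencing, and the pools are not in the labels. Replicate numbers were given in accession order and only name the mice, which the methods call independent biological replicates.

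Counts of genes with more than 4 reads in any library (17464 of 39179) were scaled by TMM and fitted over all 9 groups with edgeR 4.0.16 (R 4.3.3, quasi-likelihood, Benjamini-Hochberg adjustment). DESeq2 1.42.0 was an alternative. The fit was tested on simulated data, where it recovered 91% of 100 genes changed 2.5-fold and 98% of 100 changed 4-fold, with 2 false calls. The simulation gave every gene the same spread between mice and changed no gene of low count. These rates therefore do not carry over to genes with few reads or a wider spread, such as several of the members. Depth of 11767284 to 56509899 reads per mouse sets the precision, and counting error is largest for *Mup1*, *Mup4*, *Mup5* and *Mup7*.

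The members and gene lists were chosen with earlier results of these data known. Named genes were all Mup loci, *Cyp1a1* and *Tiparp* as dose checks, up to 4 called genes by size of change and 2 abundant uncalled genes per list, and the 5 non-Mup genes most correlated with the summed members. *Tiparp* was called from 3 µg/kg, at means of 43.7, 92.6 and 169.6 CPM at 3, 10 and 30 µg/kg. Of 39179 gene IDs, 37607 had a symbol. Unique sequence was counted in 50-base windows of GENCODE vM21 transcripts, not of the genome, a choice made after seeing the data (Python 3.11.15, Biopython 1.88). Promoters came from RefSeq (GRCm38.p6) for 6 members.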

Additional observations from a re-analysis of the deposited data

Results flagged for a closer look

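Single mice stood far above the rest of their group for 7 of the 10 members. Dixon's 95% gap criterion was used as a screen on each dose group of each member, 90 groups in all, and it picked out 9, each through its highest mouse. The criterion by its construction picks about 1 in 20 groups of normally distributed values. That rate does not carry over here, since CPM values are skewed, some counts are low and the same mice recur across genes, so the picks are a description only.

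Mouse 2 at 1 µg/kg had 17.4 CPM of *Mup7* (620 reads), where the next mouse had 2.75 CPM. Mouse 1 at 0.3 µg/kg had 8.23 CPM of *Mup7* and also 59.3 CPM of *Mup20*, where the next mice had 2.73 and 16.5 CPM. *Mup4* reached 1.83 CPM in mouse 1 at 3 µg/kg (25 reads) and 3.06 CPM in mouse 4 at 30 µg/kg (55 reads), with all other mice of those groups under 0.1 CPM.

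Mouse 2 at 0.03 µg/kg had 42.4 CPM of *Mup16* against 22.4 CPM in the next mouse. Mouse 2 at 3 µg/kg had 5.03 CPM of *Mup2* against 2.84 CPM. Vehicle mouse 3 had 5.24 CPM of *Mup21* against 3.64 CPM, and all 5 mice at 30 µg/kg were still above it. *Mup1* was at 0.614 CPM in mouse 2 at 0.1 µg/kg, on 10 reads.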

How the results depend on the processing

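Under other scalings, filters, DESeq2, fits of only 2 groups and fits that left out 1 mouse, *Mup3* and *Mup21* met the call rule at 30 µg/kg each time, which supports nothing since they were chosen on these contrasts, at log2 fold changes of -4.80 to -4.18 and 1.05 to 1.399 without single mice. With library size as the only scaling, members called higher in the 1, 3 and 10 µg/kg groups numbered 2, 1 and 1, the growth hormone list had 2 called higher, and the other Mup loci had 4 higher and 3 lower. In a fit of only the 2 groups, 0 members were called higher at 1 µg/kg. DESeq2 called 2 members lower at 10 µg/kg. With the filterByExpr filter 0 genes of the growth hormone list (*Socs1* was dropped) and 1 neighbour of the cluster were called higher, and several low Mup loci gave no value. The cause of the other changes was not tested.

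Leaving out each of the 10 mice compared in turn, which for the 1, 3 and 10 µg/kg mice was added after seeing the data, gave 0 to 2, 0 to 1 and 0 to 1 members called higher in the 1, 3 and 10 µg/kg groups, and 1 to 2 and 1 to 4 called lower in the 10 and 30 µg/kg groups. The higher count was 2 at 1 µg/kg and 1 at 3 µg/kg without vehicle mouse 2, and 1 at 10 µg/kg without vehicle mouse 3. The lower count at 10 µg/kg was 2 without vehicle mouse 4 or without that group's mouse 1. Over all genes, 248 to 389 were called higher at 3 µg/kg, the lowest without that group's mouse 1, against 376 with all mice. Leaving out 1 mouse at the top dose or in vehicle gave 0 to 2 growth hormone genes higher, 1 to 4 secreted protein genes lower, and 3 to 5 other Mup loci lower. *Mup18* lost its call without vehicle mouse 3 or 5 or without mouse 1, 2, 3 or 5 at 30 µg/kg (-1.18 to -1.03), with library size alone (-1.04), and with no filter beyond 1 read (-1.24, adjusted p = 0.0544 in edgeR). *Mup-ps22* lost its call without vehicle mouse 3 or 5 or without mouse 1 or 2 at 30 µg/kg (-1.06 to -0.91), with library size alone (-0.99), and in the fit of only the 2 groups (-1.17, edgeR adjusted p = 0.0523).

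No paired analysis was possible because the labels give no replicate numbers that link mice across doses. Depth limits *Mup1* and *Mup4*, whose medians were 3 and 2 reads. Dropped shared reads limit the central genes, and the counts say nothing of their total expression.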

Other observations

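Among the Mup loci that met no call, *Mup-ps12* was at 7.70 ± 1.51 CPM in vehicle, 11.5 ± 2.71 CPM at 1 µg/kg, 13.1 ± 1.25 CPM at 10 µg/kg and 14.7 ± 4.66 CPM at 30 µg/kg (SD, n = 5), with an edgeR adjusted p of 0.0367 at a log2 fold change of 0.93 at the top dose. *Mup-ps13* had its highest mean in the 0.1 µg/kg group, 24.1 ± 7.64 CPM against 12.6 ± 4.39 CPM in vehicle (log2 fold change 0.93 ± 0.31 as fitted by edgeR), and was at 9.64 ± 3.53 CPM at 30 µg/kg.

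Both *Mup-ps12* and *Mup-ps16* were lowest in the 0.01 µg/kg group. *Mup-ps16* was at 1.18 ± 0.327 CPM there and 3.01 ± 0.164 CPM in vehicle, and neither gene was called at that dose (edgeR adjusted p = 0.246 for *Mup-ps12* and 0.108 for *Mup-ps16*). Mouse 3 of that group, which had the lowest *Mup17* level, was also its lowest mouse for *Mup-ps12* (0.696 CPM) and *Mup-ps16* (0.749 CPM).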
